A study of Mus musculus with 9 samples.

Results

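The 10 genes described here are Adipoq, Gpx3, Lpl, Lepr, Ibsp, Spp1, Alpl, Bglap, Col1a1 and Col1a2, which are known from marrow fat cells, from osteoblasts, the cells that form bone, and from the stromal cells that give rise to both. They were taken by gene symbol from a deposited table of 52183 genes, and all 10 were found. They were selected on their known roles and, in part, on the measured FPKM values of these same libraries. In these, Adipoq, Gpx3 and Ibsp were seen to be lower in aged than in young controls or in the group labelled knockout. The values of those 3 genes are therefore a description, with no test. Total RNA, made into libraries with the SMART-Seq v4 kit for very low input, had been sequenced from primary endothelial cells, the cells that line blood vessels, isolated by flow cytometry from long bones of mice that were given an antibody to VE-cadherin shortly before death. Of the 9 libraries, 3 came from mice aged 18 months labelled as Thbs1 knockouts, 3 from aged controls of 18 months and 3 from young controls of 3 months. The labels give neither the strain nor the altered part of Thbs1, and do not say whether a library came from 1 mouse or several, so the p-values below speak only for the spread among libraries.

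As background, marrow fat cells secrete the hormone adiponectin (Adipoq) and release fatty acids from circulating fat with lipoprotein lipase (Lpl). Osteoblasts lay down type I collagen (Col1a1 and Col1a2) and add bone sialoprotein (Ibsp), osteopontin (Spp1) and osteocalcin (Bglap), while the tissue-nonspecific alkaline phosphatase (Alpl) frees phosphate for mineral. The leptin receptor (Lepr) marks a reticular stromal cell that surrounds marrow sinusoids, makes the chemokine Cxcl12 and can become a fat cell or an osteoblast. Several of these genes are not exclusive to those cells: macrophages also make Lpl and Spp1, and Gpx3, a secreted glutathione peroxidase, is made in many tissues.

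Coordinates are those of GENCODE M21 on GRCm38. Levels are FPKM, which scale fragments by gene length and by library depth. Gene lengths here cover all annotated exons, for example 12426 bases for Col1a2. Where transcripts use only part of those exons, FPKM on such a length is too low, so levels of different genes compare only roughly. Depth, recovered from the values, was 22160000 to 30410000 fragments per library, with 27230000 to 30410000 in labelled knockout libraries, 22160000 to 24590000 in aged controls and 22860000 to 23890000 in the young controls. Genes above 0 FPKM numbered 21844 to 24564 in labelled knockout libraries, 20728 to 22119 in aged controls and 25153 to 26391 in young controls. How far this difference bears on the levels of low genes was not tested. The targeted gene goes against its label: Thbs1 averaged 21.6 ± 3.46 FPKM in labelled knockout libraries, 0.887 ± 0.257 FPKM in aged controls and 4.21 ± 0.331 FPKM in young controls (SD, n = 3 each). Whether these libraries are mislabelled or an altered Thbs1 transcript was counted was not tested, and a value per gene cannot show it. The label is kept only as a name, and the direction of each comparison with the libraries labelled knockout depends on it. Replicate 2 of the libraries labelled knockout stood apart from the other two in several genes, and its values are given with each result it touches.

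The markers set as defining for fat cells and for osteoblasts, other than Ifitm5, were at or near 0 in these libraries, so the 10 genes are called by their symbols and not by a cell type. Plin1 and Cidec, which coat fat droplets, reached at most 0.04 and 0.19 FPKM in any library. The fat cell hormones Lep and Retn were listed at 0 in 8 of 9 libraries each and reached 0.01 and 0.03 FPKM in the other. Sp7, the transcription factor that commits cells to bone, was at 0.12, 0 and 0.08 FPKM in labelled knockout libraries, at 0, 0 and 0.06 FPKM in aged controls and at 0.39, 0 and 0.07 FPKM in young controls. Dmp1, an osteocyte matrix protein, stayed at or under 0.1 FPKM, Bglap2 at or under 0.28 FPKM, and Bglap3 was listed at 0 in all 9. Ifitm5, an osteoblast membrane protein, was the exception among the defining osteoblast markers, at 0.95 to 1.35 FPKM in labelled knockout libraries, 0.29 to 0.91 FPKM in aged controls and 0.57 to 1.26 FPKM in young controls. Of the 19 osteoblast genes listed beside the 10, 17 averaged under 1 FPKM, and of the 19 fat cell genes 10 did. Other fat cell genes were high. Over the 9 libraries the fatty acid carrier Fabp4 averaged 2064.8 FPKM, its regulator Pparg 239.7 FPKM, the lipogenic gene Thrsp 126.3 FPKM and Cfd, the gene for the fat cell product adipsin, 105.4 FPKM. As background, endothelium also makes Fabp4 and Pparg. Cfd was at 79.48, 72.20 and 52.49 FPKM in labelled knockout libraries, at 134.31, 40.94 and 234.53 FPKM in aged controls and at 88.35, 98.15 and 147.90 FPKM in young controls, with overlap between all groups but labelled knockout and young control libraries. The endothelial label held: Cdh5, the gene for VE-cadherin, averaged 162.6 ± 8.49 FPKM in labelled knockout libraries, 159.1 ± 4.68 FPKM in aged controls and 172.6 ± 4.58 FPKM in young controls (SD, n = 3 each). The pan-leukocyte gene Ptprc stayed at 0.03 to 0.13 FPKM. Some leukocyte RNA was present all the same: S100a8, the highest of the listed leukocyte genes, ran from 2.33 FPKM in young control replicate 2 to 74.91 FPKM in aged control replicate 3.

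**Figure D1:**
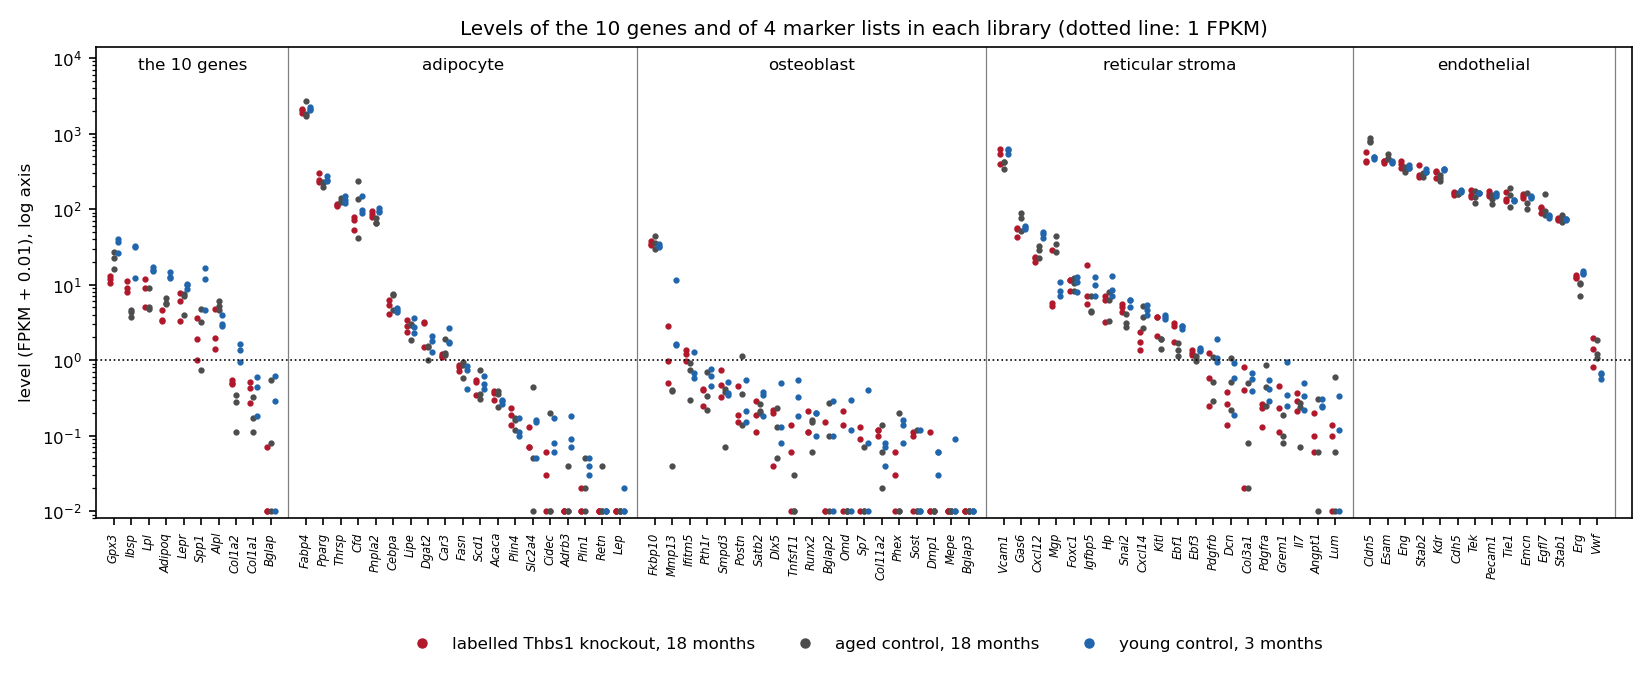
Levels in FPKM + 0.01 on a log axis, 1 point per library, for the 10 genes and for the listed fat cell, osteoblast, reticular stromal and endothelial genes, each sorted by its mean and coloured by group. Of the 10 genes, 7 lie above the dotted line at 1 FPKM on average, while Plin1, Lep, Retn, Sp7 and Dmp1 lie near the bottom and the endothelial genes Cdh5, Pecam1 and Kdr lie above 100 FPKM.

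Adipoq was the clearest case of a graded level. It stood at 3.33, 3.41 and 4.55 FPKM in labelled knockout libraries, at 5.65, 5.53 and 6.72 FPKM in aged controls and at 14.47, 12.51 and 12.34 FPKM in young controls. The 3 groups did not overlap. The means were 3.76 ± 0.682, 5.97 ± 0.655 and 13.1 ± 1.18 FPKM (SD, n = 3 each) in labelled knockout, aged control and young control libraries, so the aged controls held 45.5% of the young level and the libraries labelled knockout 63.1% of the aged level. The values rest on 129 to 457 fragments per library. Such an order without overlap, with labelled knockout lowest and young highest, was found in 18 of the 11796 genes tested, or 0.153%, and Adipoq was itself chosen for its fall. In RNA from a sorted population, fewer cells of a type and less RNA per cell cannot be told apart. At these levels Adipoq was 0.0196 to 0.0276 times Cdh5 in labelled knockout libraries, 0.0336 to 0.0429 times in aged controls and 0.0699 to 0.0863 times in young controls, per length.

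Gpx3, on the plus strand of chromosome 11 at 54902453 to 54910377, was the highest of the 10 genes on average and followed a similar order. Its levels were 12.97, 11.95 and 10.61 FPKM in labelled knockout libraries, 22.30, 27.08 and 16.18 FPKM in aged controls and 36.71, 40.51 and 25.82 FPKM in young controls. The libraries labelled knockout lay below every control library, while aged control replicate 2 lay above young control replicate 3, so aged and young controls overlapped. The means were 11.8 ± 1.18, 21.9 ± 5.46 and 34.3 ± 7.62 FPKM (SD, n = 3 each) in labelled knockout, aged control and young control libraries. The ratio of Adipoq to Gpx3 within a library overlapped between all groups, at 0.257 to 0.429 in labelled knockout libraries, 0.204 to 0.415 in aged controls and 0.309 to 0.478 in the young controls.

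Lpl, the enzyme that splits circulating triglyceride, encoded on the plus strand of chromosome 8 at 68880491 to 68907448, was lower in aged than in young controls. It stood at 9.03, 5.06 and 4.73 FPKM in aged controls, against 15.66, 17.09 and 14.96 FPKM in young controls, with no overlap. The log2 fold change was -1.26 ± 0.272 SE (limma adjusted p = 0.0408). Leaving out 1 library ended this call in 6 of 9 cases, namely for any of the young controls, aged control replicate 2 or 3, or labelled knockout replicate 3 (limma adjusted p = 0.0633 to 0.145). In the libraries labelled knockout Lpl was at 11.81, 5.10 and 8.89 FPKM. They overlapped the aged controls, with a log2 fold change of 0.38 ± 0.272 SE (limma adjusted p = 0.422), and lay below the young controls without passing the test (-0.88 ± 0.272 SE, limma adjusted p = 0.345). Replicate 2 was the lowest of them. Lpl was low in FPKM beside Gpihbp1, the endothelial protein that carries lipoprotein lipase to the vessel lumen, at 228.2 ± 26.3 FPKM in labelled knockout libraries, 243.5 ± 70.9 FPKM in aged controls and 200.2 ± 19.5 FPKM in young controls (SD, n = 3 each). The ratio of Lpl to Gpihbp1 was 0.0243 to 0.0547 in labelled knockout libraries, 0.0185 to 0.0303 in aged controls and 0.0674 to 0.0928 in the young controls.

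Lepr, on the plus strand of chromosome 4 at 101717404 to 101815352, was measured at 7.70, 3.33 and 6.09 FPKM in labelled knockout libraries, at 7.15, 7.57 and 3.98 FPKM in aged controls and at 9.96, 10.22 and 8.73 FPKM in young controls. The young controls were above every library of 18 months, and labelled knockout and aged control libraries overlapped. Lepr passed the test in no comparison, with log2 fold changes of -0.59 ± 0.264 SE for aged against young controls (limma adjusted p = 0.179), -0.13 ± 0.264 SE for labelled knockout against aged control (limma adjusted p = 0.809) and -0.72 ± 0.264 SE for labelled knockout against young control (limma adjusted p = 0.442). The lowest value was again in labelled knockout replicate 2. Of the other defining reticular stromal markers, the transcription factors Ebf3 and Foxc1 averaged 1.22 and 10.4 FPKM over the 9 libraries and the receptor Pdgfra 0.37 FPKM.

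Ibsp and Spp1 encode acidic phosphoproteins of bone matrix and lie 123.6 kb apart on the plus strand of chromosome 5 (GRCm38), Ibsp at 104299171 to 104311469 and Spp1 at 104435118 to 104441050. Mepe, another gene of bone matrix, lies between them at 104325329 to 104338611 and reached at most 0.08 FPKM in any library. Adipoq lies on the plus strand of chromosome 16 at 23146536 to 23158028. Their promoters are shown because Adipoq and Ibsp led the choice of these genes and Spp1 lies in the same stretch as Ibsp. Each sequence is the 250 bases before the RefSeq start (GRCm38.p6, plus strand), and capitals mark matches on either strand to 4 motifs. The RUNX core was searched as TGTGGT. The CCAAT box was searched as those letters. The TATA box was searched as TATAAA. The nuclear receptor core was searched as AGGTCA.
Adipoq chr16:23146286-23146535: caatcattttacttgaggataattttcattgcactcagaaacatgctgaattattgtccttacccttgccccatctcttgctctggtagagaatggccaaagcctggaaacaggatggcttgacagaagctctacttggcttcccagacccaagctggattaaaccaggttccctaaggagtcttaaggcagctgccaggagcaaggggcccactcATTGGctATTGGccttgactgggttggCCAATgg
Ibsp chr5:104299037-104299286: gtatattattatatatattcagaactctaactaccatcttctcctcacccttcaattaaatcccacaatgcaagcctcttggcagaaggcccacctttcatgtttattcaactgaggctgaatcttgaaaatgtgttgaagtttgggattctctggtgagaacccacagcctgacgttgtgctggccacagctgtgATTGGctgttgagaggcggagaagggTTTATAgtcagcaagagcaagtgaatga
Spp1 chr5:104434861-104435110: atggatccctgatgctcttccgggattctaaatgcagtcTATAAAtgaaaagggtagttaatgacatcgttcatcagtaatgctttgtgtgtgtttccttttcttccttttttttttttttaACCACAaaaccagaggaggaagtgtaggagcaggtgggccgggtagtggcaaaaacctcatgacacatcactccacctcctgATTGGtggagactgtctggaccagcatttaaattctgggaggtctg
Adipoq held 3 CCAAT boxes. Ibsp held 1 CCAAT box and 1 TATA box, both on the minus strand. Spp1 held 1 RUNX core, 1 CCAAT box and 1 TATA box, none overlapping another. Of all 32851 RefSeq windows of 250 bases, 14.0% held the RUNX core, 33.8% the CCAAT box, 12.4% the TATA box and 14.0% the nuclear receptor core on either strand. Of the 10 genes, 8 had a window, and Bglap was the other with a RUNX core. A match is a run of letters and not a bound site.

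Ibsp separated the 3 groups, with the aged controls lowest. It was at 10.98, 8.06 and 9.09 FPKM in labelled knockout libraries, at 4.36, 4.56 and 3.66 FPKM in aged controls and at 32.75, 31.54 and 12.17 FPKM in young controls. No 2 groups overlapped, although young control replicate 3 stood far below the other young controls and close to the libraries labelled knockout. The means were 9.38 ± 1.48, 4.19 ± 0.473 and 25.5 ± 11.5 FPKM (SD, n = 3 each) in labelled knockout, aged control and young control libraries. The aged controls thus held 16.5% of the young level, and the libraries labelled knockout 2.24 times the aged level, opposite to the direction of Adipoq and Gpx3 in that comparison.

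Spp1 had the widest spread between replicates of the 7 genes that were tested, with an SE of 0.518 on the log2 scale. It stood at 1.88, 3.57 and 0.98 FPKM in labelled knockout libraries, at 0.74, 4.74 and 3.23 FPKM in aged controls and at 16.82, 11.89 and 4.57 FPKM in young controls. Aged control replicate 2 lay above young control replicate 3, which was the lowest young library for Ibsp as well. The log2 fold changes were -1.64 ± 0.518 SE for aged against young controls (limma adjusted p = 0.089), -0.23 ± 0.518 SE for labelled knockout against aged control (limma adjusted p = 0.822) and -1.87 ± 0.518 SE for labelled knockout against young control (limma adjusted p = 0.287). The Ibsp to Spp1 ratio ran from 2.26 to 9.28 in labelled knockout libraries, from 0.962 to 5.89 in aged controls and from 1.95 to 2.66 in the young controls. Exons of Spp1 share 309 bases with those of Gm42793, a gene on the same strand, so fragments there could have been given to either gene. No exon of the other 9 genes overlapped another gene.

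Alpl lies on the minus strand of chromosome 4 at 137741733 to 137796384. It was at 4.61, 5.23 and 6.03 FPKM in aged controls, against 3.92, 2.81 and 2.96 FPKM in young controls, without overlap, but did not pass the test (log2 fold change 0.58 ± 0.278 SE, limma adjusted p = 0.211). The libraries labelled knockout were at 1.38, 4.75 and 1.93 FPKM. Replicate 2 lay among the aged controls and the other two below every control library. The log2 fold change of labelled knockout against aged control was -0.87 ± 0.278 SE (limma adjusted p = 0.099), and without replicate 2 it was -1.25 (limma adjusted p = 0.00468). Without that library the comparison of aged with young controls also passed the threshold (log2 fold change 0.58, limma adjusted p = 0.0478). In each comparison only this 1 of the 9 fits with 1 library left out passed. The highest limma adjusted p of those fits was 0.306 for labelled knockout against aged control and 0.418 for aged against young controls. Against the young controls the difference was -0.30 ± 0.278 SE (limma adjusted p = 0.784). Among other mineral genes, the phosphate releasing enzyme Phospho1 reached at most 0.11 FPKM, whereas the phosphate transporter Slc20a1, which many cell types use, fell to 3.94 ± 0.629 FPKM in aged controls, against 6.56 ± 0.206 FPKM in young controls (SD, n = 3, log2 change -0.62, limma adjusted p = 0.0402). Slc20a1 rose to 8.26 ± 1.34 FPKM in labelled knockout libraries relative to the aged controls, a log2 fold change of 0.90 ± 0.133 SE (limma adjusted p = 0.00691) and a call kept when any 1 library was left out.

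The remaining 3 genes, Bglap, Col1a1 and Col1a2, averaged under 1 FPKM and were not tested. Bglap lies on the minus strand of chromosome 3 at 88383501 to 88384464, Col1a1 on the plus strand of chromosome 11 at 94936224 to 94953042 and Col1a2 on the plus strand of chromosome 6 at 4504814 to 4541544. Bglap stood at 0, 0 and 0.06 FPKM in labelled knockout libraries, at 0, 0.07 and 0.53 FPKM in aged controls and at 0.28, 0 and 0.61 FPKM in young controls, which corresponds to at most 9 fragments in a library. A count of 0 fragments allows up to 0.16 to 0.219 FPKM, by a floor of 3 fragments that covers counting error only. The fragments were 0, 0 and 1 in labelled knockout libraries, 0, 1 and 8 in aged controls and 4, 0 and 9 in young controls. Replicates of the control groups disagreed, so no difference in Bglap is read from them. Of the 50-base stretches in Bglap transcripts, 56.6% also occur in its copies Bglap2 or Bglap3, which makes even these values uncertain. Col1a1 was at 0.51, 0.42 and 0.26 FPKM in labelled knockout libraries, at 0.10, 0.16 and 0.31 FPKM in aged controls and at 0.59, 0.43 and 0.17 FPKM in young controls, with overlap between all groups. Col1a2, its partner chain, was at 0.53, 0.48 and 0.47 FPKM in labelled knockout libraries, at 0.10, 0.34 and 0.27 FPKM in aged controls and at 1.63, 1.33 and 0.94 FPKM in young controls. Its 3 groups did not overlap, in the same order as those of Ibsp. In a fit with no filter, over 36202 genes, Col1a2 did not pass the test for aged against young controls (log2 difference -0.89 ± 0.163 SE, limma adjusted p = 0.109), for labelled knockout against aged control (0.28 ± 0.163 SE, limma adjusted p = 0.656) or for labelled knockout against young control (-0.61 ± 0.163 SE, limma adjusted p = 0.454).

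Set side by side per exon length, the bone matrix genes were at unequal FPKM levels. The exon lengths behind these ratios were 2068 bases for Ibsp, 6563 for Col1a1 and 12426 for Col1a2, and the transcripts in use were not measured. Ibsp exceeded Col1a1 19.2 to 35.0 times in labelled knockout libraries, 11.8 to 43.6 times in aged controls and 55.5 to 73.3 times in young controls. Col1a2 was 1.04 to 1.81 times Col1a1 in labelled knockout libraries, 0.871 to 2.12 times in aged controls and 2.76 to 5.53 times in the young controls. Col1a1 rests on 15 to 94 fragments per library and Col1a2 on 28 to 463. The share of the 10 genes' RNA that came from stromal cells carried through the sort was not tested.

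**Figure D2:**
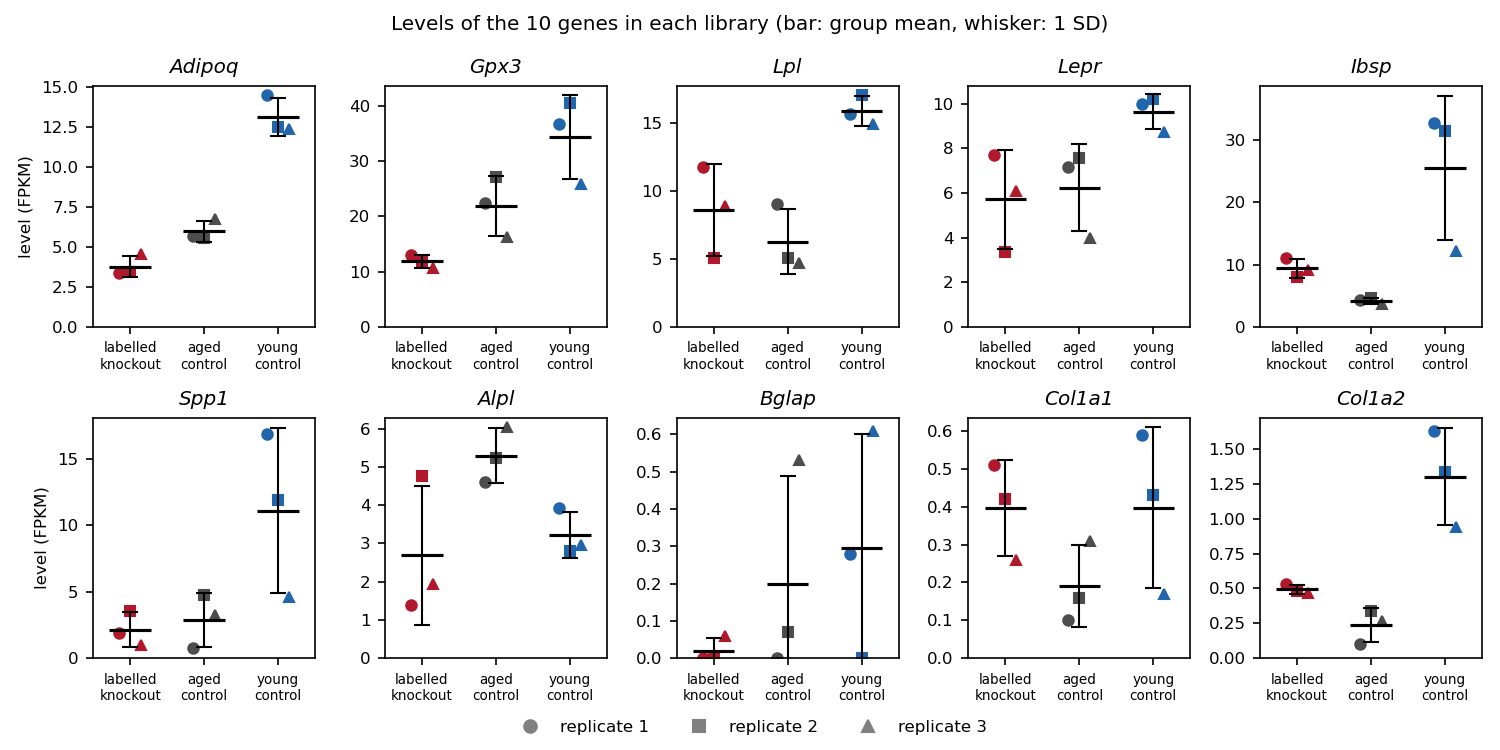
Level in FPKM (linear axes from 0) of each of the 10 genes in the 9 libraries, with labelled knockout, aged control and young control libraries from left to right, group means as bars and 1 SD as whiskers (those of Bglap that pass below 0 are clipped at the axis). Adipoq shows 3 separate groups with the libraries labelled knockout lowest, Ibsp and Col1a2 have the aged controls lowest, and labelled knockout replicate 2 (square) is the lowest of its group for Lpl and Lepr and the highest for Alpl.

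Over the 10 genes, 7 reached the mean of 1 FPKM needed for the test. Of these 7, 3 passed the threshold as lower in the aged than in young controls, against 2.80% of all 11796 genes tested. None passed as higher, against 1.20%. Of the 3, Lpl alone was open to test, since Adipoq and Ibsp were chosen for their fall. By voom, 3 of the 7 were lower as well. In limma 6 of the 7 had an unadjusted p under 0.05, as did 3263 of all 11796 genes tested. The whole table gave 141 genes higher and 330 lower in aged controls, or 238 and 196 after median-ratio scaling, which left the 3 calls among these genes in place. For labelled knockout against aged control 1 of the 7, the chosen gene Adipoq, passed as lower, against 2.01% of all genes, and 0 higher, against 2.78% (voom also called 0 higher, and 4 had an unadjusted p under 0.05 in either direction in limma). For labelled knockout against young control 2 of the 7, the chosen genes Adipoq and Gpx3, passed as lower, against 0.127%, and 0 higher, against 0.0848% (voom also called 0 higher, and 6 had an unadjusted p under 0.05 in either direction in limma). The shares of all genes are not given beside the voom counts, nor beside the 4 and the 6 genes with an unadjusted p under 0.05. For that reason, and because falling genes were chosen in these same contrasts, nothing is read from any of these counts. The 3 comparisons share their control libraries. Without overlap between groups, 4 of the 7 were lower and 1 higher in the aged than in young controls, against 21.8% and 13.9% of all genes tested. Between labelled knockout and aged control libraries 2 were lower and 1 higher without overlap (11.1% and 12.1% of all genes), and between labelled knockout and young control libraries 6 were lower and none higher (14.0% and 8.46%). The 2 lower and 1 higher were the chosen genes Adipoq, Gpx3 and Ibsp. The 4 lower in aged controls included Adipoq and Ibsp, and the 6 included all 3 chosen genes. Nothing is read from these counts without overlap either.

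**Figure D3:**
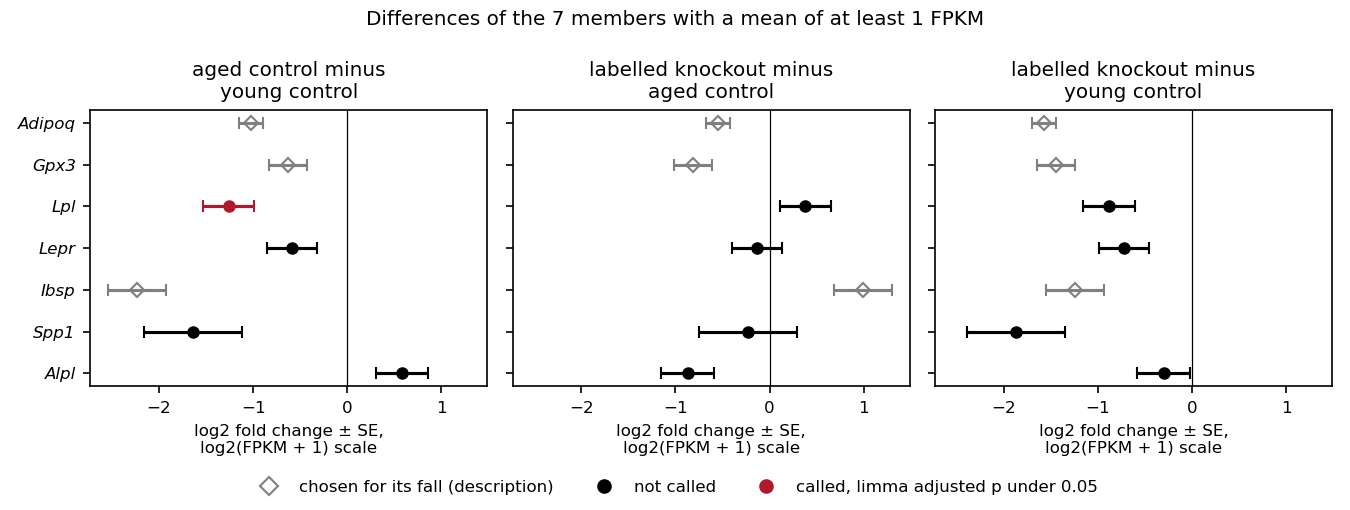
Log2 fold changes with standard errors, on the log2(FPKM + 1) scale, of the 7 tested genes in the 3 comparisons, as the first-named group minus the second. Open diamonds are the 3 genes chosen for their fall, which carry no test, and the single filled red point is Lpl in aged against young controls. Adipoq and Gpx3 lie left of 0 in all 3 panels, whereas Ibsp lies left of 0 in both comparisons with the young controls and right of it in the comparison of labelled knockout with aged control.

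Other genes of the same cells were taken from lists without the 10 genes. These lists too were chosen with earlier results of these data known, so their counts and medians are a description. Of the 20 reticular stromal genes, 12 were tested and 3 fell in aged against young controls, where 2.80% of all genes tested did. The median log2 fold change of the 12 was -0.61, against -0.05 over all genes tested. The 3 genes were the chemokine Cxcl12, at 28.1 ± 4.97 FPKM in aged controls and 46.1 ± 3.72 FPKM in young controls (log2 fold change -0.70, limma adjusted p = 0.0355), the stem cell factor gene Kitl, at 1.73 ± 0.286 FPKM in aged controls and 3.71 ± 0.249 FPKM in young controls (-0.79, limma adjusted p = 0.0435), and the transcription factor Snai2, at 3.30 ± 0.698 FPKM in aged controls and 5.83 ± 0.687 FPKM in young controls (-0.67, limma adjusted p = 0.0401; SD, n = 3 each). Endothelium also makes Cxcl12 and Kitl. In the libraries labelled knockout Cxcl12 was at 22.91, 19.67 and 22.35 FPKM, lower than in the young controls by a log2 fold change of -1.06 ± 0.133 SE (limma adjusted p = 0.0115), while Kitl stood at 3.74, 2.05 and 3.72 FPKM. None of the 12 was called between labelled knockout and aged control libraries by limma, where the median was 0.07 and voom called 1. In that limma fit 8 of the 12 had an unadjusted p under 0.05. The share of all genes is not given beside that count, so nothing is read from it. The call of Cxcl12 against the young controls was lost without young control replicate 1 or 2 or labelled knockout replicate 1 or 2 (limma adjusted p = 0.0537 to 0.0922). Of the 19 fat cell genes 9 were tested. The lipase Pnpla2, which starts the breakdown of stored fat, fell to 69.1 ± 6.98 FPKM in aged controls, against 96.8 ± 6.48 FPKM in young controls (SD, n = 3, log2 fold change -0.48, limma adjusted p = 0.0402), and Fabp4, Pparg and the lipogenic gene Thrsp were the 3 highest and were not called in that comparison (limma adjusted p = 0.259 to 0.911). In the 2 comparisons of labelled knockout libraries limma and voom called no fat cell gene, and 2 of the 9 had an unadjusted p under 0.05 in each. The medians were -0.10, 0.00 and -0.08 for aged against young, labelled knockout against aged and labelled knockout against young libraries. The calls of Cxcl12, Kitl, Snai2, Pnpla2 and Slc20a1 in aged against young controls were all lost without any single young control library, without aged control replicate 2 and without labelled knockout replicate 3. Those of Pnpla2 and Kitl were also lost without aged control replicate 1, and those of Kitl, Snai2 and Slc20a1 without aged control replicate 3. After median-ratio scaling the calls of Kitl and Pnpla2 were lost (limma adjusted p = 0.0519 and 0.0545). With the replicate number as a block those of Cxcl12, Pnpla2 and Slc20a1 were lost (limma adjusted p = 0.0566, 0.0599 and 0.0667).

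Of the 19 osteoblast genes only the collagen chaperone Fkbp10 and the collagenase Mmp13 were tested. Fkbp10 stood at 35.4 ± 2.11 FPKM in labelled knockout libraries, 36.5 ± 7.03 FPKM in aged controls and 32.7 ± 1.76 FPKM in young controls (SD, n = 3 each). Mmp13 was at 0.95, 2.85 and 0.49 FPKM in labelled knockout libraries, at 0.39, 0.38 and 0.03 FPKM in aged controls and at 11.63, 1.62 and 1.57 FPKM in young controls, with a single high young library. Neither passed the test in any comparison by limma on log2 values or by voom, and 1 of the pair had an unadjusted p under 0.05, for aged against young controls. The enzymes that modify and fold collagen were well expressed, with the collagen chaperone Serpinh1 at 252.4 FPKM, the hydroxylase Plod1 at 74.1 FPKM and Crtap at 51.3 FPKM over the 9 libraries, in endothelium that also makes basement membrane collagen. Of 11 tested, P4ha1 alone was called by limma, in labelled knockout against aged control libraries, where voom called 2, and the medians were 0.03, 0.28 and 0.13 for aged against young, labelled knockout against aged and labelled knockout against young libraries. In the other two comparisons limma and voom called none, with 3 and 2 at an unadjusted p under 0.05. P4ha1, a subunit of the proline hydroxylase, rose to 22.8 ± 3.31 FPKM in labelled knockout libraries, against 13.0 ± 1.28 FPKM in aged controls (SD, n = 3), a log2 fold change of 0.76 ± 0.124 SE with a limma adjusted p of 0.0101, and kept its call when any 1 library was left out. Among receptors and partners of the proteins, the adiponectin receptor Adipor1 averaged 63.2 FPKM and the lipase inhibitor Angptl4 700.0 FPKM over the 9 libraries. The integrin chain Itgb1, which can bind osteopontin, averaged 185.8 FPKM. Itgav, Itgb3 and Cd44 of the same list averaged 4.9, 0.723 and 0.46 FPKM. Of the 14 partner genes matched, 4 averaged under 1 FPKM. Which cells this RNA came from was not tested. Of the 10 tested, Slc20a1 alone was called by limma, and the medians were 0.01, 0.07 and 0.07 in the same order.

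The genes whose profile over the 9 libraries was closest to each of the 7 were found by the mean absolute difference of log2(FPKM + 1) after each gene's own mean was subtracted, among 11785 other genes. For Adipoq they were Gm47850, a predicted gene, at a difference of 0.155, Cxcl12 at 0.224 and Epdr1 at 0.244, and for Gpx3 Gm47850 at 0.231, the complement inhibitor Serping1 at 0.246 and Snord13 at 0.249. Lpl was closest to Cd36, the fatty acid transporter, at 0.140, which was at 408.69, 235.87 and 303.91 FPKM in labelled knockout libraries, at 298.60, 152.90 and 216.13 FPKM in aged controls and at 455.77, 544.06 and 500.44 FPKM in young controls. Zfp979 at 0.167 and Filip1l at 0.172 came next. Ibsp was closest to Samd9l at 0.403, the endothelial secreted protein gene Esm1 at 0.410 and Snora57 at 0.418, and Spp1 to n-R5s97 at 0.420, Serpine2 at 0.522 and Gm47850 at 0.529. Those distances for Ibsp and Spp1 were the widest of the 7. The differences were not scaled, so a gene that varies more between libraries can have wider distances. Alpl was closest to Cenpv at 0.119, Flywch2 at 0.127 and Ms4a6d at 0.131, and Lepr to Map7d3 at 0.111, Prpf39 at 0.116 and Pnn at 0.131. The search picks the best of many genes over few libraries, so these distances are a description.

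**Figure D4:**
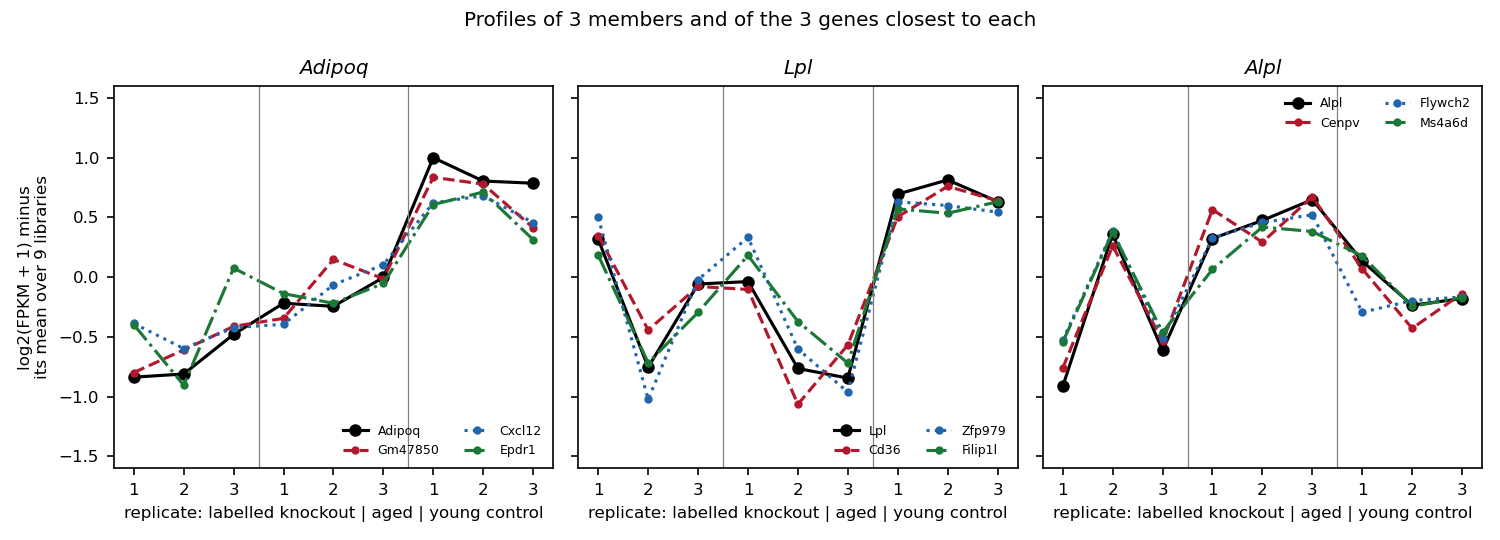
Log2(FPKM + 1) minus each gene's mean over the 9 libraries, for Adipoq, Lpl and Alpl (black) and the 3 genes closest to each, with labelled knockout, aged control and young control replicates from left to right in each panel. The lines only join the points of a gene. Adipoq and Cxcl12 are highest in young controls, Lpl and Cd36 share a dip in labelled knockout replicate 2, and Alpl with Cenpv, Flywch2 and Ms4a6d is higher there than in the other labelled knockout libraries.

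Markers of other cells were measured beside these genes, and their part in the results was not tested. Mural cells of vessels were traced by Rgs5, at 2.84, 0.55 and 2.02 FPKM in labelled knockout libraries, 3.14, 1.78 and 2.97 FPKM in aged controls and 5.02, 5.21 and 5.38 FPKM in young controls, and Acta2 was at 3.11, 0.26 and 0.76 FPKM, 1.55, 1.05 and 2.97 FPKM, and 6.85, 4.89 and 3.41 FPKM in the same 3 groups. Both were highest in young controls, as were Adipoq, Lpl, Lepr and Ibsp. Kcnj8, the other mural gene tested and the highest, went the other way. It was at 317.85 to 400.60 FPKM in labelled knockout libraries, 445.45 to 453.94 FPKM in aged controls and 372.07 to 410.64 FPKM in young controls. The summed level of the 20 reticular stromal genes was 529.0 to 747.3 FPKM in labelled knockout libraries, 545.9 to 582.1 FPKM in aged controls and 708.9 to 778.8 FPKM in young controls, most of it Vcam1, which endothelium also makes. The 19 osteoblast genes summed to 39.0 to 41.5, 31.8 to 46.9 and 36.3 to 51.5 FPKM in the same groups, most of it Fkbp10, and the 19 fat cell genes to 2366.4 to 2669.6, 2154.5 to 3225.1 and 2602.4 to 2885.9 FPKM, most of it Fabp4. The 7 osteoclast genes summed to at most 3.30 FPKM in any library, and the 7 skeletal muscle genes to at most 2.67 FPKM. Only 1 gene of each of these lists was tested, namely Ctsk and Mylpf, the highest of each, with means of 1.29 and 1.41 FPKM over the 9 libraries. The 8 cartilage genes, none of which could be tested, summed to 0.29 to 0.42 FPKM in labelled knockout libraries, 0.11 to 0.17 FPKM in aged controls and 0.35 to 0.65 FPKM in young controls. These sums are near 0, and the aged controls, which were lowest, also had fewer genes above 0 FPKM than the young controls. Sox9, the highest cartilage gene listed, averaged 0.134 FPKM over the 9 libraries. Blood cell RNA was present and varied within groups: the 6 red cell genes summed to 44.5 to 179.8 FPKM in labelled knockout libraries, 53.8 to 183.5 FPKM in aged controls and 113.1 to 117.7 FPKM in young controls, and the 10 leukocyte genes to 24.5 to 95.1, 15.7 to 165.1 and 8.12 to 99.5 FPKM in the same groups. The 5 megakaryocyte genes summed to 20.9 to 35.2, 23.7 to 34.7 and 25.1 to 28.8 FPKM in the same groups. The highest of the red cell, leukocyte and megakaryocyte genes were Hbb-bs, S100a8 and Pf4, with means of 67.1, 28.9 and 19.0 FPKM over the 9 libraries. Of these lists 5 red cell, 5 leukocyte and 3 megakaryocyte genes were tested, and 3 of the 8 mural genes. Limma and voom called none of those tested, and only mural genes had an unadjusted p under 0.05, namely 2, 1 and 2 in the 3 comparisons. The mural genes summed to 325.7 to 402.1 FPKM in labelled knockout libraries, 452.7 to 457.3 FPKM in aged controls and 382.8 to 422.3 FPKM in young controls, most of it Kcnj8, and the 14 endothelial genes to 2809.4 to 2898.5, 2998.5 to 3188.1 and 2808.7 to 2896.6 FPKM. Of the endothelial genes, the junction gene Cldn5 was called higher and the transcription factor Erg lower in aged against young controls, and Cldn5 lower in labelled knockout against aged control libraries. The calls of Cldn5 and Erg in aged against young controls were lost without any single young control library. That of Erg was also lost without aged control replicate 2 or 3 or labelled knockout replicate 3, after median-ratio scaling (limma adjusted p = 0.0617) and with the replicate block (limma adjusted p = 0.0614). Mgp, a stromal and vascular matrix gene, split the libraries labelled knockout as Alpl did, at 5.68, 28.98 and 5.17 FPKM, against 34.79, 27.05 and 43.62 FPKM in aged controls and 7.07, 10.72 and 8.29 FPKM in young controls.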

How the data were processed

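RNA of 9 libraries in 3 groups, taken from the labels, was analysed. The table deposited by the authors holds 52183 genes in FPKM, with 2 decimals. The submitters' processing notes name STAR, edgeR and FastQC 0.11.5, and as builds GRCm38 and mm10. How fragments were counted, and whether by strand, is not given in the sources used here. All 52183 identifiers matched GENCODE M21 (GRCm38), which gave coordinates and exon lengths. Depth was recovered from short genes of 60 to 400 bases, whose FPKM were whole multiples of 1 fragment, within a tolerance of 0.1, for 99.6% to 99.8% of values, and it limits the precision of low values.

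Values were tested as log2(FPKM + 1), a pseudocount of 1 that understates changes of low genes, with limma 3.58.1 in R 4.3.3: a mean per group over all 9 libraries, 6 residual degrees of freedom, eBayes with a trend, and Benjamini-Hochberg adjustment over the 11796 genes that averaged 1 FPKM or more (threshold 0.05, two-sided). The steps were tested on simulated data. Alternatives were pseudocounts of 0.1 and 5, no filter, a filter at 5 FPKM, median-ratio scaling, only the groups compared, a block for the replicate number, leaving out each library, and limma voom on recovered fragments.

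The 10 genes and all other lists were chosen with earlier results of these data known. Named from the stromal, fat cell, osteoblast, collagen and partner lists were called genes, defining markers and the 3 highest genes, and from the lists for other cells the highest, called and defining genes. Rgs5, Acta2, Mgp, Adipor1, Cfd, Mepe, Phospho1, Bglap3, Itgav, Itgb3 and Cd44 were named after their values were seen. 1 listed partner gene, Ankh, was not matched by symbol. Promoters came from RefSeq (GRCm38.p6). Figures were drawn with matplotlib 3.10.9 in Python 3.11.15.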

Additional observations from a re-analysis of the deposited data

How the results depend on the processing

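Calls among the 7 genes include Adipoq, Gpx3 and Ibsp, chosen in these contrasts, and support nothing. Of the refits of the 7 genes, 309 kept direction and side of the threshold, 31 lost a call, 10 gained one and 4 turned the sign of a value that was not called. These were in labelled knockout against aged control: the log2 fold change of Spp1, -0.23, was 0.13 without aged control replicate 2 and 0.06 without labelled knockout replicate 3, and that of Lepr, -0.13, was 0.02 without aged control replicate 2 and 0.16 without labelled knockout replicate 2; with 1 library left out they spanned -0.73 to 0.13 and -0.38 to 0.16. For aged against young controls, the count of genes called, 471, was 39 with no filter, 716 with the compared groups alone and 183 with the replicate number as a block, and 5 to 1039 when 1 library was left out. The highest count was without labelled knockout replicate 2 and the lowest without young control replicate 1. The 3 calls among the 7 genes became 1 with no filter and 0 to 4 with 1 library left out, under 2 without any single young control. The count of 0, without young control replicate 1, stood beside 5 genes with an unadjusted p under 0.05, and voom with all libraries called 3. For labelled knockout against aged control, the 565 genes were 146 with no filter and 149 with the compared groups alone, and 197 to 1159 with 1 library left out. The 1 call among the 7 became 2 with a pseudocount of 0.1, 0 with a pseudocount of 5, 0 with no filter, 2 with a filter at 5 FPKM, and 0 to 1 with 1 library left out (0 without young control replicate 1 or 2, aged control replicate 1 or 2, or labelled knockout replicate 1). At these counts of 0 from limma, 4 or 5 of the genes had an unadjusted p under 0.05, and voom called 1 of the 7. With the compared groups alone, and without young control replicate 3, the single call was of Ibsp, higher, in place of Adipoq, and by voom it was of Gpx3, lower. For labelled knockout against young control, the 25 genes were 15 with no filter and 12 with a filter at 5 FPKM, and 11 to 31 with 1 library left out. The 2 calls among the 7 became 1 with no filter and 1 to 3 with 1 library left out (1 without young control replicate 1 or 2 or any labelled knockout library). With no filter more genes are tested, and the other causes were not tested. Same-numbered libraries did not deviate together (correlations of -0.13 to 0.12 across genes), so the replicate numbers were not taken as pairs. With the block, the number of calls among the 7 was 3, 1 and 2 in the 3 comparisons, as without it, but in labelled knockout against aged control Adipoq lost its call to Gpx3. Median-ratio scaling moved the median log2 fold change of all genes by at most 0.05.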
